A study of Mus musculus with 3 samples.

Results

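A pair of C2C12 lines, 1 carrying a short hairpin RNA against FoxO1 and 1 carrying a short hairpin RNA against FoxO3, were compared on Affymetrix mouse arrays, 1 array for each line. The members were the 9178 genes, of 18194 on the array, that had a used probe set, meaning one with a scaled signal of 1000 or more on either array. Used probe sets numbered 14443 of 45101. C2C12 is a mouse myoblast line. The cells had been transfected with the hairpin, grown in DMEM with puromycin, and screened by colony for depletion of the intended gene, so what the hairpin and what the chosen colony contributed cannot be told apart. A line with a hairpin against FoxO4 was made the same way, and its signals are given beside the others. With 1 array per line there is no replicate, no p-value and no standard error, and every count below is a count by size of difference.

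FoxO proteins are forkhead transcription factors that insulin and growth factor signalling, through Akt, keeps out of the nucleus. When active they raise genes of growth arrest, stress resistance and fasting metabolism, and in muscle genes of protein breakdown. Myoblasts divide in serum and, once they leave the cell cycle, switch on myogenin and sarcomere genes and fuse.

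Each signal was raised to a floor at the 20th percentile of its array, 81.2 on the FoxO1-labelled array and 73.1 on the FoxO3-labelled array, and a difference is log2 of the first minus log2 of the second. Signals are printed as they were before the floor, so any printed below its array's floor entered the difference at the floor. A gene's difference is the median over its used probe sets that carry its symbol alone. Bright means a signal of 1000 or more. Of the 9178 genes, 2725 had 2 or more used probe sets and 6453 had 1. A gene was called agreeing when it had 2 or more used probe sets and each was at least 2-fold apart in the same direction. Signals joined by "against" are those of the FoxO1-labelled array and then those of the FoxO3-labelled array, with a gene's probe sets in the same order on each. Probe sets of 1 gene were the only repeat measurement, and they share the array and the RNA. Over the 2004 genes with exactly 2 used probe sets, the difference between the 2 values had a standard deviation of 1.42 log2 units, and 65.5% had the same sign. Over the 1131 genes with exactly 2 probe sets at 1000 or more on both arrays that standard deviation was 0.71, and over the 326 with exactly 2 at 3000 or more on both it was 0.52.

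The targeted genes were read first as a check of the labels. Foxo1 went against its label, with 3 used probe sets at 1378, 2778 and 2221 on the FoxO1-labelled array against 559, 563 and 439 on the FoxO3-labelled array, differences of 1.30, 2.30 and 2.34. Foxo1 therefore met the definition of an agreeing gene and was higher on the array that should show its depletion. The 2 brighter Foxo3 probe sets read 2379.7 and 1357 on the FoxO1-labelled array against 1573 and 1047 on the FoxO3-labelled array, lower on the latter by less than 2-fold. On the FoxO4-labelled array they read 386 and 1016, so the FoxO3-labelled array was not the lowest at either. The dimmest Foxo3 probe set read 174, 82 and 96.4 in the order FoxO1, FoxO3 and FoxO4. It was lowest on the FoxO3-labelled array, close to the floor there of 73.1, with a difference of 1.09. The dimmest Foxo1 probe set read 105.5, 62.4 and 59.2 in that order, a difference of 0.53. On the FoxO4-labelled array the 3 Foxo1 probe sets read 592, 1827 and 1573, so the FoxO3-labelled array was lowest at each. The brighter Foxo4 probe set read 1799, 345 and 80.4 in the order FoxO1, FoxO3 and FoxO4, and the dimmer one 188, 163 and 763, highest on the FoxO4-labelled array. Every direction below is therefore tied to an array by its label and to no known knockdown. The 3' to 5' signal ratio was 6.31 for Actb and 5.0 for Gapdh on the FoxO1-labelled array, and 5.50 and 5.90 on the FoxO3-labelled array, beside 3.45 and 2.23 on the FoxO4-labelled array.

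Of the 14443 probe sets, 2574 (17.8%) were higher on the FoxO1-labelled array by 2-fold or more and 2339 (16.2%) lower. Probe sets that reached 1000 on 1 array only lie on either side of that limit and so had to differ. There were 5163 of these, 3009 bright on the FoxO1-labelled array alone and 2154 bright on the FoxO3-labelled array alone. Among the 9280 probe sets at 1000 or more on both arrays, 627 (6.76%) were higher by that much and 996 (10.7%) lower. By gene, 1589 of 9178 (17.3%) were higher by 2-fold or more and 1386 (15.1%) lower, and the median gene lay at 0.01. With each array centred on its median signal instead, 1173 genes were higher and 1962 lower, which takes the higher share of the called genes from 53.4% to 37.4%. Agreeing genes numbered 152 higher and 154 lower of 2725, or 5.58% and 5.65%. The highest signals just outside the limit were 999.9 and 999.8, and the lowest inside it was 1000. The other pairs of arrays, which share an array with this one, had 147 agreeing genes of 2814 (5.22%) for FoxO1 minus FoxO4 and 262 of 2670 (9.81%) for FoxO3 minus FoxO4, beside 306 (11.2%) here.

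**Figure D1:**
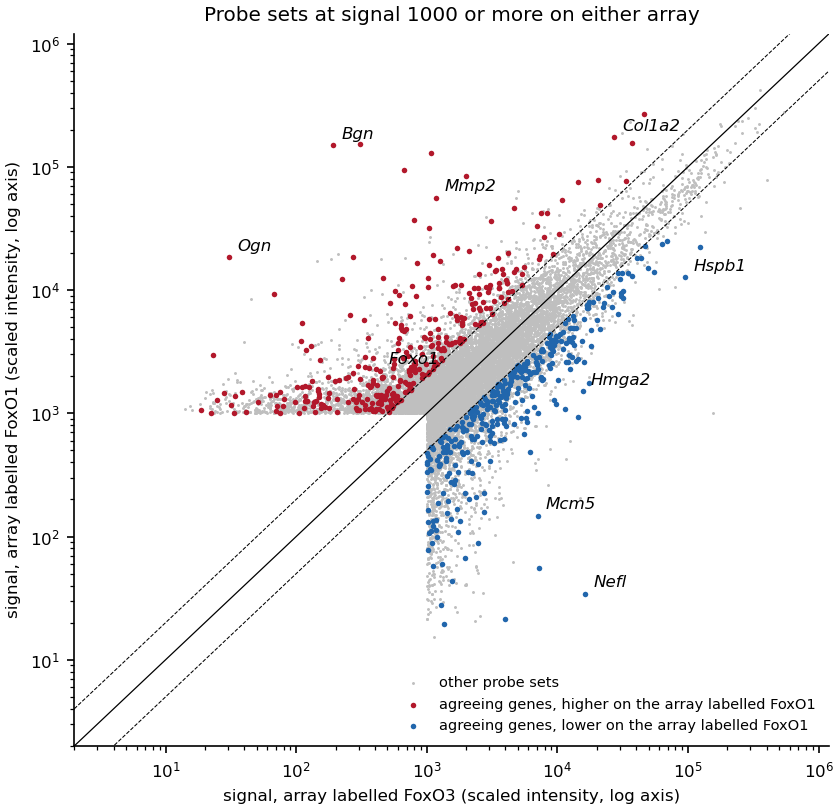
Signal of each used probe set on the FoxO3-labelled array (x axis, log scale) and the FoxO1-labelled array (y axis, log scale), in scaled intensity units. The solid line marks equal signal and the dashed lines 2-fold differences. Red and blue points are the probe sets of the 152 higher and 154 lower agreeing genes, and named points are each named gene's probe set with the largest difference.

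Genes of the extracellular matrix that were 2-fold or more apart were mostly brighter on the FoxO1-labelled array. Of 26 collagen genes, 26 had a probe set and 22 a used one, with 14 higher by 2-fold or more and 1 lower, around a median difference of 1.94. The shares over all used genes were 17.3% higher and 15.1% lower. Of the 12 collagen genes with 2 or more used probe sets, 8 agreed as higher and 0 as lower. Counting only probe sets at 1000 or more on both arrays gave 9 higher and 0 lower of 15, median 1.92, beside 6.74% higher, 9% lower and a median of -0.06 over all 6435 genes counted that way.

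Col1a1 and Col1a2 encode the chains of type I collagen, the main fibrillar collagen of connective tissue. The probe sets of Col1a2 read 174515 and 269397 on the FoxO1-labelled array, 27281 and 45753 on the FoxO3-labelled array and 66666 and 131443 on the FoxO4-labelled array. Those of Col1a1 read 42337 and 22046 on the FoxO1-labelled array, 8321 and 1706 on the FoxO3-labelled array and 6319 and 6326 on the FoxO4-labelled array. The FoxO1-labelled array was highest at all 4 probe sets, while the FoxO3-labelled array was lowest at 3 of them and the FoxO4-labelled array at 1 of Col1a1. Col5a2, a chain of the fibril-nucleating type V collagen, read 156228 and 10318 on the FoxO1-labelled array, 37366 and 2317 on the FoxO3-labelled array and 114112 and 10129 on the FoxO4-labelled array. Col12a1 and Col11a1 were further apart. Col12a1, a fibril-associated collagen, read 7777 and 84874 on the FoxO1-labelled array, 523 and 1984 on the FoxO3-labelled array and 10424 and 49318 on the FoxO4-labelled array. Col11a1 read 3237 and 2992 on the FoxO1-labelled array, 118 and 22.9 on the FoxO3-labelled array and 140.3 and 169 on the FoxO4-labelled array, so it was bright on the FoxO1-labelled array alone. Type VI collagen, which forms beaded microfibrils around cells, had Col6a1 at 39242 against 2840.2 and Col6a2 at 8631 and 18474 against 2190.2 and 272, while the other chain measured, Col6a3, lay at 0.07 with its probe set bright on both arrays. The basement membrane chains Col4a1 and Col4a2 were both at -0.23, less than 2-fold apart, and Col3a1 was at 0.62. Col7a1, the anchoring fibril collagen, went the other way at 413 against 3594.

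Small leucine-rich proteoglycans, which coat collagen fibrils and bind growth factors, held some of the genes furthest apart. Of 11 genes of this family, 11 had a probe set and 6 a used one, with 4 higher by 2-fold or more and 1 lower, around a median difference of 2.07. The 3 members with 2 or more used probe sets, Bgn, Ogn and Fmod, all agreed as higher. Of the family, 2 members had a probe set bright on both arrays, 1 higher and 0 lower. Biglycan (Bgn) had 3 probe sets at 130071, 153803 and 149833 on the FoxO1-labelled array, 1069, 306 and 191 on the FoxO3-labelled array and 100960.0, 122062 and 142069 on the FoxO4-labelled array. Osteoglycin (Ogn) had 2 at 18573 and 94656 on the FoxO1-labelled array, 30.7 and 666 on the FoxO3-labelled array and 30698 and 83946 on the FoxO4-labelled array. For both, the FoxO1-labelled array and the FoxO4-labelled array were within 2-fold of each other at each probe set, and the FoxO3-labelled array was low. One Ogn signal, 30.7, was under the floor, so its difference of 7.99 measures the distance to the floor. Fibromodulin (Fmod) read 1110.5, 1336 and 1934 on the FoxO1-labelled array, 178, 175 and 239 on the FoxO3-labelled array and 4504, 7755 and 3056 on the FoxO4-labelled array. Decorin (Dcn) went against its relatives, with 1 used probe set at 46.8 on the FoxO1-labelled array, 1323 on the FoxO3-labelled array and 7871 on the FoxO4-labelled array.

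Matricellular and elastic fibre genes leaned the same way with more exceptions. Of 34 such genes, 31 had a probe set and 22 a used one, with 13 higher by 2-fold or more and 3 lower, around a median difference of 1.05. Over all used genes 17.3% were higher and 15.1% lower. Over probe sets bright on both arrays the list had 7 higher and 3 lower of 17, median 0.97, beside 6.74% and 9% over all genes counted that way. Thrombospondin 1 (Thbs1), an adhesive glycoprotein that can activate latent TGF-beta, read 7730.3 and 36458 on the FoxO1-labelled array, 676 and 3122 on the FoxO3-labelled array and 15435 and 50551 on the FoxO4-labelled array. Thbs2 ran opposite, with 3 probe sets at 6157, 1428 and 16515 on the FoxO1-labelled array, 26134, 8782 and 31122 on the FoxO3-labelled array and 2694, 606 and 4767 on the FoxO4-labelled array. Among the CCN proteins, Ccn3 read 2429 and 5752 against 299 and 332, while Ccn2, the connective tissue growth factor, read 5227 against 37463. So paralogues within both families stood on opposite sides. The elastic fibre protein Fbln5 had 1 probe set at 3802 against 40.2, and the periostin gene Postn 1 at 24592 against 4823. Laminins, nidogens and perlecan did not go 1 way. Nid2 was at 18199 against 679 and Nid1 at 10143 against 60265. The median of these 10 genes was 0.68, and -0.25 over probe sets bright on both arrays.

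Enzymes that build and cut the matrix, where 2-fold or more apart, were mostly higher on the same array. Of 27 collagen-modifying, processing and cross-linking genes, 24 had a probe set and 22 a used one, with 11 higher by 2-fold or more and 1 lower, around a median difference of 1.05. Lysyl oxidase (Lox), which cross-links collagen and elastin, read 75259.8 and 10369 on the FoxO1-labelled array, 14464 and 3567 on the FoxO3-labelled array and 75344 and 36224 on the FoxO4-labelled array, and its relative Loxl1 had 1 probe set at 35075 against 5448. Pcolce, which enhances removal of the procollagen C-propeptide, read 76394 and 48946 against 33341 and 21208, differences of 1.20 and 1.21. Of 27 matrix proteases and inhibitors, 25 had a probe set and 17 a used one, with 10 higher by 2-fold or more and 0 lower, around a median difference of 1.07. Gelatinase A (Mmp2) read 36991 and 56181 on the FoxO1-labelled array, 800.5 and 1183 on the FoxO3-labelled array and 1149.7 and 442 on the FoxO4-labelled array. It was thus far brighter on the FoxO1-labelled array than on both others. Mmp23 reached 1000 there alone, at 1638 and 2694 on the FoxO1-labelled array, 126 and 151 on the FoxO3-labelled array and 99.6 and 246 on the FoxO4-labelled array. The aggrecanase Adamts5 was at 4779 and 10519 against 641 and 1026. Over probe sets bright on both arrays these 2 lists had 9 higher and 0 lower of 19, median 0.95, and 7 higher and 0 lower of 14, median 0.87.

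**Figure D2:**
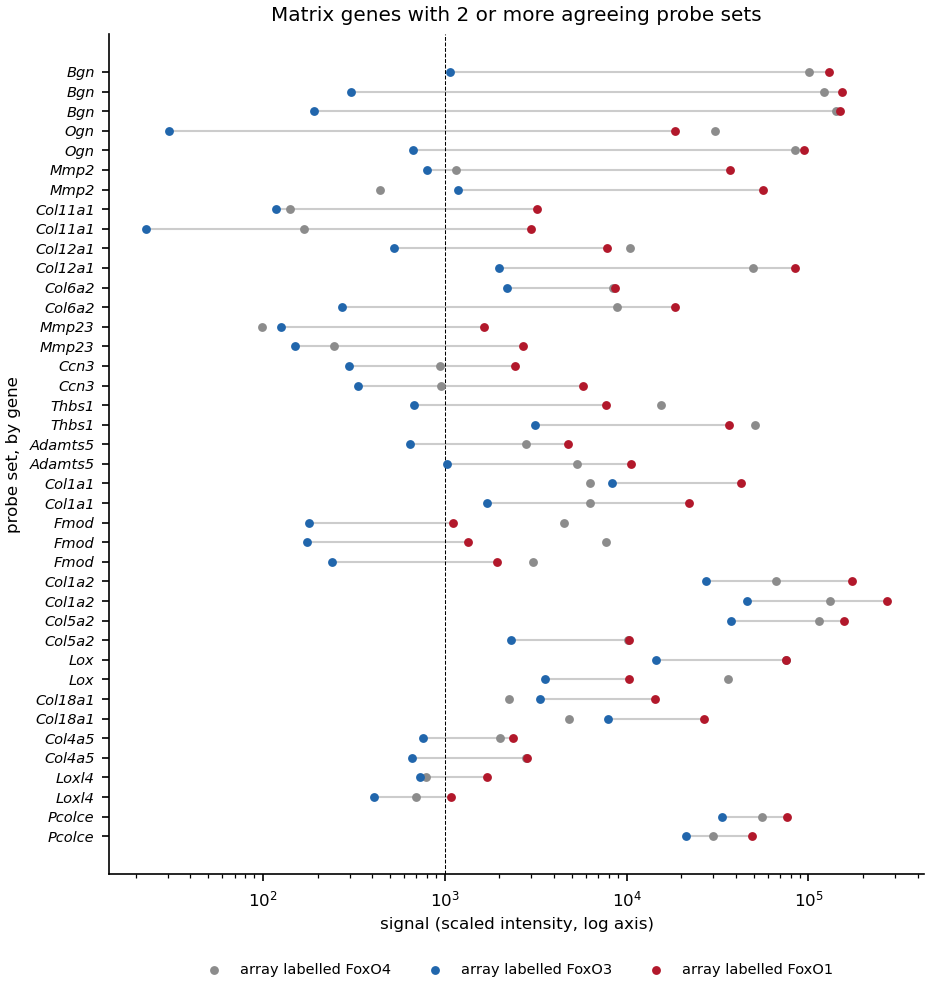
Signal of every used probe set of the matrix genes that agreed (rows, ordered by difference, with a gene's probe sets in neighbouring rows) on the 3 arrays (x axis, scaled intensity, log scale). In every row the red point, the FoxO1-labelled array, lies to the right of the blue point, the FoxO3-labelled array. The definition of agreeing fixes the 2-fold gap and a shared direction within a gene. It does not fix which direction, and no gene of these lists agreed as lower. The grey point, the FoxO4-labelled array, lies at varying places.

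Markers of other cell types that secrete matrix were read beside these. Of 15 fibroblast genes, 15 had a probe set and 8 a used one, with 5 higher by 2-fold or more and 0 lower, around a median difference of 1.05. Counted on probe sets bright on both arrays, there were 1 higher and 0 lower of 4, median 0.63. Of 7 markers that define the type, Tcf21 reached 1000, at 1008 against 453, and the other 6 were under it on both arrays. The brightest Pdgfra probe set read 505 on the FoxO1-labelled array and 57.1 on the FoxO3-labelled array, Thy1 read 499 and 319.6, and Dpt 85.3 and 95.5. Fap and Clec3b were brighter on the FoxO3-labelled array, at 59.5 against 398 and 237 against 353, and Pi16 read 130.4 against 46.4. The summed signal of the 7 was 2525 on the FoxO1-labelled array, 1723 on the FoxO3-labelled array and 2732 on the FoxO4-labelled array. Pdgfrb, the PDGF receptor of pericytes and fibroblasts, was an agreeing gene at 12519.8 and 12441 on the FoxO1-labelled array, 459 and 1022 on the FoxO3-labelled array and 7263 and 3481 on the FoxO4-labelled array. The osteoblast markers Sp7, Alpl and Ibsp summed to 2427, 2337 and 2252, with Sp7 at 1056 against 1905, Alpl at 955 against 129.8 and Ibsp at 416 against 302. The part of any other cell type in the matrix differences was not tested. In such bulk RNA, more cells of a type and more RNA per cell cannot be told apart.

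Smooth muscle and actin cytoskeleton genes that were 2-fold or more apart were also brighter on the FoxO1-labelled array. Of 20 such genes, 20 had a probe set and 18 a used one, with 9 higher by 2-fold or more and 0 lower, around a median difference of 1.07. The other 9 were less than 2-fold apart, and over probe sets bright on both arrays there were 5 higher and 0 lower of 13, median 0.87. Smooth muscle actin (Acta2) read 228866 at its brightest probe set, against 35744 on the FoxO3-labelled array and 278209 on the FoxO4-labelled array. Transgelin (Tagln), an actin-binding protein of smooth muscle, read 16348 on the FoxO1-labelled array, 1336 on the FoxO3-labelled array and 16543 on the FoxO4-labelled array. Both genes were thus low on the FoxO3-labelled array and less than 2-fold apart on the others. The regulatory light chain Myl9 read 10899 on the FoxO1-labelled array, 601 on the FoxO3-labelled array and 2362 on the FoxO4-labelled array, and enteric actin Actg2 6363 on the FoxO1-labelled array, 494 on the FoxO3-labelled array and 2093 on the FoxO4-labelled array. Of the other smooth muscle markers, 2 were dim, Myh11 at 610.5 against 38.9, and Myocd at 18 against 15.2. Cnn1 read 1629 on the FoxO1-labelled array, 730 on the FoxO3-labelled array and 197 on the FoxO4-labelled array. Myh11 on the FoxO3-labelled array and Myocd on both arrays were under the floor. The 5 smooth muscle markers summed to 247472, 37865 and 295793 in the order FoxO1, FoxO3 and FoxO4, nearly all of it Acta2 and Tagln, and the part of smooth muscle cells was not tested.

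The labelled cell type was checked against myoblast markers. Myod1, the factor that sets muscle identity, read 2959 on the FoxO1-labelled array and 2140.1 on the FoxO3-labelled array. Desmin (Des) read 6907 and 7433, and integrin alpha 7 (Itga7), the laminin receptor of muscle, 16883 and 20688. These 3 markers were less than 2-fold apart, and all were lower on the FoxO4-labelled array, at 713, 272 and 4124. M-cadherin (Cdh15) was lower on the FoxO1-labelled array, at 4761 against 10814. The adhesion molecule Vcam1 was higher there, at 3704 against 1189, as was Myog below. Myf5 and Pax7 were less than 2-fold apart, at 1056 against 1758 and 127 against 242. The 8 markers summed to 39071, 44916 and 19995 in the order FoxO1, FoxO3 and FoxO4. Epcam, an epithelial adhesion protein, was also bright, at 4778, 2539 and 4793, while the epithelial keratins Krt8 and Krt18 and Cdh1 were under 1000 on all 3.

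Differentiation genes were mixed. Myogenin (Myog), which opens terminal differentiation, read 2673 on the FoxO1-labelled array, 653 on the FoxO3-labelled array and 159 on the FoxO4-labelled array. Musculin (Msc), a repressor of myogenic factors, was low on the FoxO1-labelled array at 321 against 2309.8, as was Twist2, another repressor, at 616 against 4027. Id3, from the same list of myogenic regulators, was higher at 12277 against 5179. Of 13 used genes of that list, 2 were higher by 2-fold or more and 3 lower, around a median of -0.33. Over probe sets bright on both arrays there were 1 higher and 1 lower of 8, median -0.17. Of 40 sarcomere genes, 40 had a probe set and 23 a used one, with 12 higher by 2-fold or more and 2 lower, around a median difference of 1.0. Slow troponin T (Tnnt1) read 2781 against 128, slow troponin I (Tnni1) 1589.6 against 169, and cardiac troponin T (Tnnt2), the 1 agreeing higher gene, 8183 and 9744 against 3271 and 4520.1. Pdlim3, a Z-disc protein, was lower at 75 against 2323, and the fast myosin heavy chain Myh1 agreed as lower at 412 and 544 against 1414 and 1619. Over probe sets bright on both arrays the sarcomere count was 4 higher and 1 lower of 11, median 0.54.

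Integrins, the receptors for matrix, had shares close to those over all used genes, which were 17.3% higher and 15.1% lower. Of 10 used integrin genes, 2 were higher by 2-fold or more and 2 lower, around a median of 0.33. Over probe sets bright on both arrays there were 2 higher and 1 lower of 8, median 0.35. Itgb5, the integrin subunit that pairs with alpha V to bind vitronectin, had 4 probe sets at 33354, 10925, 42359.6 and 10876 against 6998, 1643, 7443 and 1575. Itga3 read 6243 and 10474 against 259 and 3592. These were the 2 agreeing integrins. Itgb7 and Itga6, with 1 used probe set each, were lower, at 145 against 3455 and 1756 against 3911. Of 25 cadherin and surface adhesion genes, 25 had a probe set and 15 a used one, with 8 higher by 2-fold or more and 3 lower, around a median difference of 1.26. Restricted to probe sets bright on both arrays, that list had 4 higher and 2 lower of 10, median 0.95. Boc, a co-receptor for Hedgehog that promotes myogenic differentiation, read 1239.7 and 1382 against 287 and 116. The hyaluronan receptor Cd44 went the other way, with 3 probe sets at 1292, 8536 and 203 against 3514, 31636 and 2095.

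Signalling genes that act on matrix-producing cells followed in part. Of 39 genes of the TGF-beta, BMP and activin axis, 36 had a probe set and 24 a used one, with 11 higher by 2-fold or more and 3 lower, around a median difference of 0.86. Among ligands, Tgfb3 read 5901 against 708 and Bmp4 4371 against 687. The type II receptor Tgfbr2 read 25039 on the FoxO1-labelled array, 3701 on the FoxO3-labelled array and 19669 on the FoxO4-labelled array. Follistatin-like 1 (Fstl1) was the agreeing gene, at 9286 and 78081 against 2513 and 20617. Over probe sets bright on both arrays this list had 4 higher and 0 lower of 15, median 0.28. Of 38 Wnt pathway genes, 37 had a probe set and 22 a used one, with 10 higher by 2-fold or more and 0 lower, around a median difference of 0.78. On probe sets bright on both arrays the count was 4 higher and 0 lower of 13, median 0.32. The Wnt receptor Fzd6 agreed at 10399 and 1529 against 2460.1 and 147, and Fzd1 read 8658 against 1696. Of growth factors and receptors, 7 of 20 used genes were higher by 2-fold or more and 2 lower, around a median of 0.42, and over probe sets bright on both arrays 2 higher and 1 lower of 13, median 0.11. Pdgfc, a PDGF ligand, read 14677 and 14866 against 4830.1 and 3794, and the lymphatic growth factor Vegfc 1295 and 1179 against 80.7 and 446. Erbb3, a neuregulin receptor, was lower at 124 against 1410.0.

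Secreted immune signals split. Of 33 chemokine, cytokine and receptor genes, 32 had a probe set and 19 a used one, with 9 higher by 2-fold or more and 5 lower, around a median difference of 0.95. Over all used genes 17.3% were higher and 15.1% lower. Over probe sets bright on both arrays the list had 3 higher and 1 lower of 7, median 0.95, beside 6.74% and 9% over all genes counted that way. Cxcl12, the ligand of Cxcr4, had 3 probe sets at 1269, 1265 and 2317 on the FoxO1-labelled array, 122, 142 and 362 on the FoxO3-labelled array and 1097, 898 and 3065 on the FoxO4-labelled array. Ackr3, which scavenges Cxcl12, read 782 on the FoxO1-labelled array, 6911 on the FoxO3-labelled array and 11.6 on the FoxO4-labelled array. So the ligand was brighter on the FoxO1-labelled array and its scavenger on the FoxO3-labelled array. Tnfrsf12a, the receptor of the cytokine TWEAK, agreed as lower at 8001 and 7113 against 17384 and 16972. Of 35 interferon response genes, 31 had a probe set and 14 a used one, with 6 higher by 2-fold or more and 0 lower, around a median difference of 0.87. The Oas1a gene, an antiviral sensor of double-stranded RNA, read 3110.5 against 412, and Ifi27 11001 and 12194 against 3027 and 225. Over probe sets bright on both arrays this list had 2 higher and 0 lower of 9, median 0.63.

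On the other side, genes of DNA replication that were 2-fold or more apart were brighter on the FoxO3-labelled array, with 1 exception. Of 52 replication genes, 49 had a probe set and 45 a used one, with 1 higher by 2-fold or more and 31 lower, around a median difference of -1.32. Of 19 with 2 or more used probe sets, 8 agreed as lower and 0 as higher. Over probe sets bright on both arrays the list had 0 higher and 19 lower of 30, median -1.22. The Mcm2 to Mcm7 proteins form the ring helicase that unwinds DNA at each origin. Mcm7 had 4 probe sets at 846, 1853, 6385 and 604 on the FoxO1-labelled array, 5892, 7608, 29253 and 3646 on the FoxO3-labelled array and 2747, 4452, 17147 and 1781 on the FoxO4-labelled array. The 4 of Mcm3 read 918, 483, 648 and 619 on the FoxO1-labelled array, 5757, 1332, 3054 and 3914 on the FoxO3-labelled array and 1871, 956, 1952 and 1668 on the FoxO4-labelled array. The FoxO1-labelled array was lowest at every Mcm3 and Mcm7 probe set, the FoxO3-labelled array highest, and the FoxO4-labelled array between them. Mcm4 read 1076 and 782 on the FoxO1-labelled array, 11442 and 4050.0 on the FoxO3-labelled array and 3394 and 1445 on the FoxO4-labelled array, and Mcm5 1241 and 148 on the FoxO1-labelled array, 4762 and 7044 on the FoxO3-labelled array and 1672 and 3552 on the FoxO4-labelled array. Cdt1, which loads the helicase, read 2268 and 874 against 12492 and 3165. The ribonucleotide reductase subunit Rrm2, which supplies deoxynucleotides, had 3 probe sets at 1326, 8929 and 2600.4 on the FoxO1-labelled array, 4009, 24821 and 12019.6 on the FoxO3-labelled array and 4029, 10313 and 3633 on the FoxO4-labelled array. The primase subunit Prim1 was at 2457 and 1693 against 4974 and 4366, and the flap endonuclease Fen1 at 112 and 4246 against 1082 and 10137. Gins1, a subunit of the active helicase, had 1 probe set at 58.2 against 2399.8, the first of these under the floor. The single replication gene counted as higher, Orc2, had 2 probe sets that went opposite ways, at -0.62 and 2.84.

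Mitosis genes that were 2-fold or more apart lay on the same side. Of 46 mitosis and kinetochore genes, 45 had a probe set and 45 a used one, with 0 higher by 2-fold or more and 29 lower, around a median difference of -1.28. Of 13 with 2 or more used probe sets, 8 agreed as lower, and over probe sets bright on both arrays there were 0 higher and 20 lower of 35, median -1.19. Aurora kinase B (Aurkb), the kinase of the chromosomal passenger complex, read 334 and 106 on the FoxO1-labelled array, 1746 and 1036 on the FoxO3-labelled array and 1819 and 719 on the FoxO4-labelled array. Foxm1, a forkhead factor that drives mitotic genes, read 1006 and 1382 on the FoxO1-labelled array, 2150.4 and 6430.3 on the FoxO3-labelled array and 2525 and 5316 on the FoxO4-labelled array. Both genes were less than 2-fold apart between the FoxO3-labelled array and the FoxO4-labelled array and lower on the FoxO1-labelled array. Cyclin A2 (Ccna2) read 2879 and 2200.0 against 7181 and 5906, and Cdca8, another passenger protein, had 3 probe sets at 576, 3709 and 4557 against 3249, 8261 and 11073. Prc1, which bundles spindle microtubules in anaphase, read 1261 and 2455 against 3209.5 and 8578.

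The regulators of entry into S phase had a median nearer 0. Of 23 G1 cyclins, kinases and E2F family genes, 23 had a probe set and 21 a used one, with 0 higher by 2-fold or more and 8 lower, around a median difference of -0.82. Cyclin D1 (Ccnd1), which carries growth signals to the cell cycle, read 623 and 5356 against 2294 and 11471, and cyclin E1 (Ccne1), which starts S phase, 947 and 1213 against 2543 and 2896. E2f7 and E2f8, the repressor E2F factors, were at -1.37 and -1.81, and E2f1, an activator, at -0.14. Tfdp1, the partner through which E2F factors bind DNA, had 1 probe set at 1892 on the FoxO1-labelled array, 10973 on the FoxO3-labelled array and 6595 on the FoxO4-labelled array. Of 20 kinase inhibitor and growth arrest genes, 20 had a probe set and 18 a used one, with 6 higher by 2-fold or more and 1 lower, around a median difference of 0.61. With probe sets bright on both arrays alone, there were 2 higher and 1 lower of 14, median 0.16. Cdkn2b (p15), an inhibitor of Cdk4 and Cdk6, read 1210.3 against 151, and the stress gene Gadd45a 3791 against 1113. Cdkn1a (p21) was at 0.46 and Cdkn1b (p27) at 0.53, both under 2-fold. Btg1, an antiproliferative gene, agreed as lower at 4247 and 1770.5 against 9834 and 4351. Hmga2, a chromatin protein of proliferating mesenchymal cells, was among the furthest agreeing genes, at 1518 and 1290.1 on the FoxO1-labelled array, 15611 and 9342 on the FoxO3-labelled array and 641 and 2272 on the FoxO4-labelled array.

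**Figure D3:**
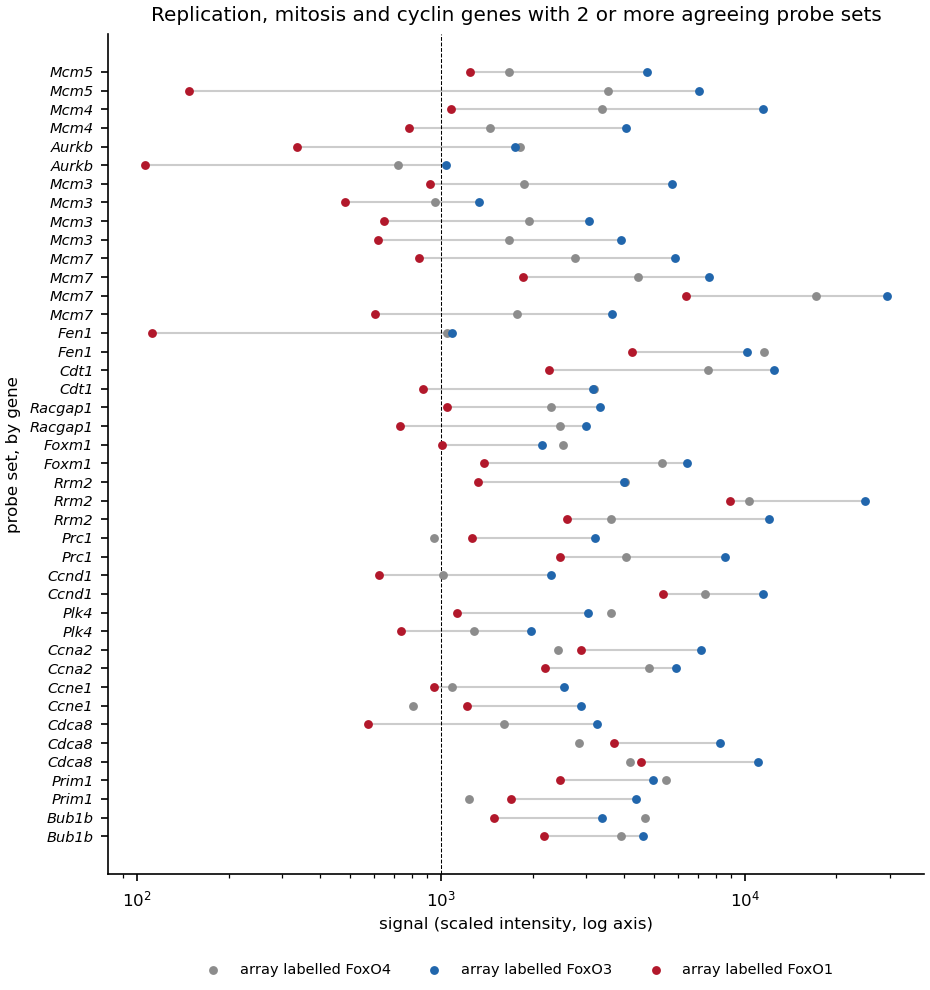
Signal of every used probe set of the replication, mitosis and cyclin genes that agreed (rows) on the 3 arrays (x axis, scaled intensity, log scale). The red point of the FoxO1-labelled array is left of the blue point of the FoxO3-labelled array in every row. The definition of agreeing requires the 2-fold gap but not its direction, and no gene of these lists agreed as higher. The grey point, the FoxO4-labelled array, lies between the other points in all rows of Mcm3, Mcm4 and Mcm7.

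The 250 bases upstream of each start were searched for letters of 3 known sites, with sequences from RefSeq (build GRCm38.p6). The E2F letters were TTTCCCGC, TTTGGCGC, TTTCGCGC and TTTGCCGC on either strand. They occurred in 517 of 27025 promoters (1.91%), in 286 of 7465 used genes with a promoter entry (3.83%) and in 10 of 118 lower agreeing genes with an entry (8.47%). Of 113 higher agreeing genes with an entry, 3 (2.65%) had them, and of 37 used replication genes with an entry, 6 (16.2%). Of 38 used mitosis genes with an entry, 1 (2.63%) had them. The FoxO letters were GTAAACA on either strand, present in 836 of 27025 promoters (3.09%), in 161 of 7465 used genes (2.16%), in 4 of 113 higher (3.54%) and in 2 of 118 lower agreeing genes (1.69%). A CArG box, the site of serum response factor, was in 378 of 27025 promoters (1.40%), in 85 of 7465 used genes (1.14%) and in 3 of 15 used smooth muscle and cytoskeleton genes with an entry (20%). It was in 1 of 113 higher (0.88%) and 1 of 118 lower agreeing genes (0.85%), and in 0 of 19 used collagen genes with an entry. The E2F and CArG searches were added after the values were seen. These are matches of letters in short windows. Shown are 2 helicase genes, 2 genes with FoxO letters and 1 contractile gene, 5' to 3', with matched letters in capitals.
Mcm5 (chr8:75109259-75109508, plus strand): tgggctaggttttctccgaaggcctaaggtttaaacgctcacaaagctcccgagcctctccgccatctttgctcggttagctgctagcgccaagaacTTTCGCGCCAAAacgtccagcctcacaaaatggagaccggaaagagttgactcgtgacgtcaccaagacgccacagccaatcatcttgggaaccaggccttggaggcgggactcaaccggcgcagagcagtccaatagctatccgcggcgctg
Mcm7 (chr5:138171884-138172133, minus strand): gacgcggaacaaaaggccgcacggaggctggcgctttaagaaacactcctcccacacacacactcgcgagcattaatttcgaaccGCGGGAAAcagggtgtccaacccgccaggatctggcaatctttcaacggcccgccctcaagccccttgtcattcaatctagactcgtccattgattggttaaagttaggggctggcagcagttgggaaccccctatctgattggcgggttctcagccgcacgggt
Btg1 (chr10:96616751-96617000, plus strand): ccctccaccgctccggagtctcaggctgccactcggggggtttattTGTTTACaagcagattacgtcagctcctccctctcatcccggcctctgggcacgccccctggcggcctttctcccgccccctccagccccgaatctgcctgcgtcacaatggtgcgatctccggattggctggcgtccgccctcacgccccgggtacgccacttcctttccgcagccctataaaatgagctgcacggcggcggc
Txnip (chr3:96557707-96557956, plus strand): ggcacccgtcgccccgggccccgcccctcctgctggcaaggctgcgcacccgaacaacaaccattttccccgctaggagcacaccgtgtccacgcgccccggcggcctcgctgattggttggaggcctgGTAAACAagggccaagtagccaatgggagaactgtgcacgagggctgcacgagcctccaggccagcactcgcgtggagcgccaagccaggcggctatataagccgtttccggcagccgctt
Myl9 (chr2:156775214-156775463, plus strand): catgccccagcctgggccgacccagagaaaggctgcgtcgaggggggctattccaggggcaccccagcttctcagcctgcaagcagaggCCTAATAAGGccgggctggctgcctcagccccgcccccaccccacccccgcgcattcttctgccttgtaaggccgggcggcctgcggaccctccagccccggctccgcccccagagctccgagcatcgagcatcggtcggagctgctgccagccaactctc
In the Mcm5 window the E2F letters lie on both strands and overlap.

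Genes that make ribosomes and were 2-fold or more apart were also brighter on the FoxO3-labelled array. Their list was added after the values were seen. Of 65 ribosome biogenesis genes, 64 had a probe set and 60 a used one, with 0 higher by 2-fold or more and 33 lower, around a median difference of -1.11. Of 24 with 2 or more used probe sets, 13 agreed as lower and 0 as higher, and over probe sets bright on both arrays there were 0 higher and 24 lower of 47, median -1.05. Nucleophosmin (Npm1), an abundant nucleolar chaperone, read 9788 and 8041 on the FoxO1-labelled array, 31910.3 and 18676 on the FoxO3-labelled array and 31701 and 25395 on the FoxO4-labelled array. Nop56, a core protein of box C/D particles that methylate ribosomal RNA, read 2538 and 3859 against 5852 and 15458. Dyskerin (Dkc1), the pseudouridine synthase, and its partner Nhp2 were at 830.4 and 285 against 2637 and 1632, and 686 and 1183 against 3175 and 9711. Mybbp1a, a nucleolar protein, read 1283 and 9518 against 5346 and 30755. Cytosolic ribosomal proteins lay nearer 0, with 7 of 40 used genes lower by 2-fold or more, 0 higher and a median of -0.62. The median of aminoacyl-tRNA synthetases was -0.62, 4 of 18 being lower by 2-fold or more, and proteasome subunits -0.36, with 1 of 35 lower and 1 higher.

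Heat shock chaperones that were 2-fold or more apart were mostly brighter on the FoxO3-labelled array. Of 27 heat shock genes, 25 had a probe set and 22 a used one, with 1 higher by 2-fold or more and 9 lower, around a median difference of -0.87. All 22 used members had a probe set at 1000 or more on both arrays. Hspb1, a small heat shock protein that guards actin filaments, read 22151 and 12795 on the FoxO1-labelled array, 123833 and 95524 on the FoxO3-labelled array and 26866 and 9557 on the FoxO4-labelled array. Alpha B-crystallin (Cryab), its relative in muscle, read 3426 and 4877 on the FoxO1-labelled array, 8805 and 13869.9 on the FoxO3-labelled array and 1818 and 1927 on the FoxO4-labelled array. Both were brightest on the FoxO3-labelled array. The mitochondrial chaperonin pair Hspd1 and Hspe1 read 15956 against 45822 for Hspd1, and 2272 and 1776 against 4842 and 17506 for Hspe1. Hsp90aa1, the inducible Hsp90, read 2388 and 9004 against 5387 and 30838. Of endoplasmic reticulum chaperones, 0 of 25 used genes were lower by 2-fold or more and 2 higher, around a median of 0.20 that became -0.05 when arrays were centred on their medians. Restricted to probe sets bright on both arrays, there were 1 higher and 0 lower of 24, median 0.11. Amino acid response genes under Atf4 had a median of 0.09, which became -0.16 after that centring, with 1 higher and 1 lower of 27, and 0 higher and 2 lower of 25, median -0.01 over probe sets bright on both arrays.

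Genes of the respiratory chain were mostly less than 2-fold apart. Of 72 respiratory chain and ATP synthase genes, 69 had a probe set and 65 a used one, with 0 higher by 2-fold or more and 3 lower, around a median difference of -0.18. Cytochrome c (Cycs) was an exception, at 4903, 1601 and 3528 against 13166, 6009 and 18087. Of 26 cholesterol synthesis and uptake genes, 21 had a probe set and 21 a used one, with 4 higher by 2-fold or more and 1 lower, around a median difference of 0.63. The sterol demethylase Cyp51 and the desaturase Sc5d agreed as higher, at 1.19 and 2.41, and 1.57 and 2.09. Glucose transporters split. Slc2a3 read 1450.4 and 1282 against 28.2 and 24.6, and Slc2a1, the main transporter of dividing cells, had 3 probe sets at 3937, 6619 and 6704 against 11073, 9274 and 15793. The fatty acid carrier Fabp5 agreed as lower at 5759 and 3293 against 20092 and 11109, and the elongase Elovl5 as higher at 13389.6 and 15417 against 2530.1 and 5577. Of 26 used antioxidant genes, 3 were higher by 2-fold or more and 7 lower, around a median of -0.13. The shares over all used genes were 17.3% higher and 15.1% lower. Over probe sets bright on both arrays there were 1 higher and 4 lower of 21 antioxidant genes, median -0.21. Thioredoxin (Txn1) and its reductase Txnrd1 were lower at 23552 and 481 against 63397 and 2028, and 5333 against 14057. The secreted peroxidase Gpx3 was higher at 3586 against 140.1.

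Of 31 genes often cited as FoxO targets, 31 had a probe set and 21 a used one, with 4 higher by 2-fold or more and 3 lower, around a median difference of 0.26. These shares are close to the 17.3% and 15.1% over all used genes. Limited to probe sets bright on both arrays, there were 2 higher and 1 lower of 17, median 0.08. Pdk4, the kinase that shuts pyruvate dehydrogenase in fasting, read 2044 on the FoxO1-labelled array, 85.2 on the FoxO3-labelled array and 1648 on the FoxO4-labelled array. Pik3ip1, an inhibitor of PI3 kinase, read 2788 on the FoxO1-labelled array, 163 on the FoxO3-labelled array and 3104 on the FoxO4-labelled array. Both were less than 2-fold apart between the FoxO1-labelled array and the FoxO4-labelled array and low on the FoxO3-labelled array. Txnip, a thioredoxin-binding brake on glucose uptake, went the other way at 349 on the FoxO1-labelled array, 2726 on the FoxO3-labelled array and 1266 on the FoxO4-labelled array, as did Klf2, a quiescence factor, at 626 on the FoxO1-labelled array, 2941 on the FoxO3-labelled array and 1511 on the FoxO4-labelled array. Cited2, a transcriptional co-regulator, agreed as lower at 133 and 7275 against 1114 and 22439. Sod2 and Cat, the antioxidant targets, were at 0.08 and 0.02. Of the atrophy and autophagy list, 4 of 26 used genes were higher by 2-fold or more and 2 lower. Map1lc3a, a protein of the autophagosome membrane, agreed at 19664 and 5549 against 9192 and 1849.9. In the insulin and IGF list, the ligand Igf1 read 1868 against 364 and the binding protein Igfbp7 55619 against 4823. That list's median was 0.15, and -0.10 once arrays were centred on their own medians.

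Immediate early genes, which respond within minutes to serum, split, with Fos and its relative Fosl1 on opposite sides. Of 31 such genes, 31 had a probe set and 27 a used one, with 6 higher by 2-fold or more and 9 lower, around a median difference of -0.52. Over all used genes 17.3% were higher and 15.1% lower. Over probe sets bright on both arrays there were 1 higher and 5 lower of 15, median -0.72, beside 6.74% and 9% over all genes counted that way. Fos read 5939 on the FoxO1-labelled array, 530.3 on the FoxO3-labelled array and 8245 on the FoxO4-labelled array, and Egr3 1676 against 133. Fosl1, a relative of Fos that appears later in the response, read 62.6 on the FoxO1-labelled array, 4546 on the FoxO3-labelled array and 781 on the FoxO4-labelled array. Atf3, a stress-induced repressor, read 34.6 on the FoxO1-labelled array, 2682 on the FoxO3-labelled array and 353 on the FoxO4-labelled array. Both were under the floor on the FoxO1-labelled array. The feedback inhibitor Errfi1 agreed as lower at 2335 and 77.9 against 8811 and 1029, and the phosphatase Dusp4 read 1528 against 8912.

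Some of the largest single differences were in genes of other lineages, brighter on the FoxO3-labelled array. Neurofilament light chain (Nefl), a structural filament of axons, read 34.4 and 55.6 on the FoxO1-labelled array, 16178 and 7275 on the FoxO3-labelled array and 82.3 and 515 on the FoxO4-labelled array. The medium chain Nefm had 1 probe set at 392 on the FoxO1-labelled array, 6768 on the FoxO3-labelled array and 60.5 on the FoxO4-labelled array, and neuronal tubulin Tubb3 1 at 254 on the FoxO1-labelled array, 3554 on the FoxO3-labelled array and 548 on the FoxO4-labelled array. These 3 genes reached 1000 on the FoxO3-labelled array alone, and both Nefl probe sets were under the floor on the FoxO1-labelled array. Their part as markers of other cells was not tested. Gap43, a growth cone protein, also reached 1000 there alone, at 323 against 1302, and Stmn2, a tubulin-binding protein of neurons, agreed as lower at 1847 and 2998 against 3904 and 8716. Syn1 was higher at 1.08, and Snap25 and Dcx were under 1000 and brighter on the FoxO1-labelled array, at 355 against 36.2 and 167 against 76.1. Of 24 neuronal genes listed, 9 were used, 5 were lower and 1 higher, with 1 higher and 1 lower of 3, median -0.57 over probe sets bright on both arrays. Mcpt8, a basophil protease, read 263 on the FoxO1-labelled array, 8498 on the FoxO3-labelled array and 42.2 on the FoxO4-labelled array, while the other basophil and mast cell markers were under 1000 on both arrays and went both ways. Cpa3 read 476 against 997 and Kit 55.9 against 377, while Fcer1a read 399.9 against 328 and Ms4a2 626 against 81.7. Alox5, the leukotriene-forming lipoxygenase, read 592 on the FoxO1-labelled array, 12395 on the FoxO3-labelled array and 166 on the FoxO4-labelled array. The leukocyte marker Ptprc read 127 on the FoxO1-labelled array and 20.5 on the FoxO3-labelled array, the latter under the floor. Macrophage markers went both ways, Cd68 at 193 against 1593, Adgre1 at 600.2 against 980.5, Csf1r at its brightest probe set at 1386 against 526 and Tyrobp at 462 against 41.3. Of 21 mast cell, basophil and macrophage genes listed, 5 were used, 1 higher and 2 lower.

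**Figure D4:**
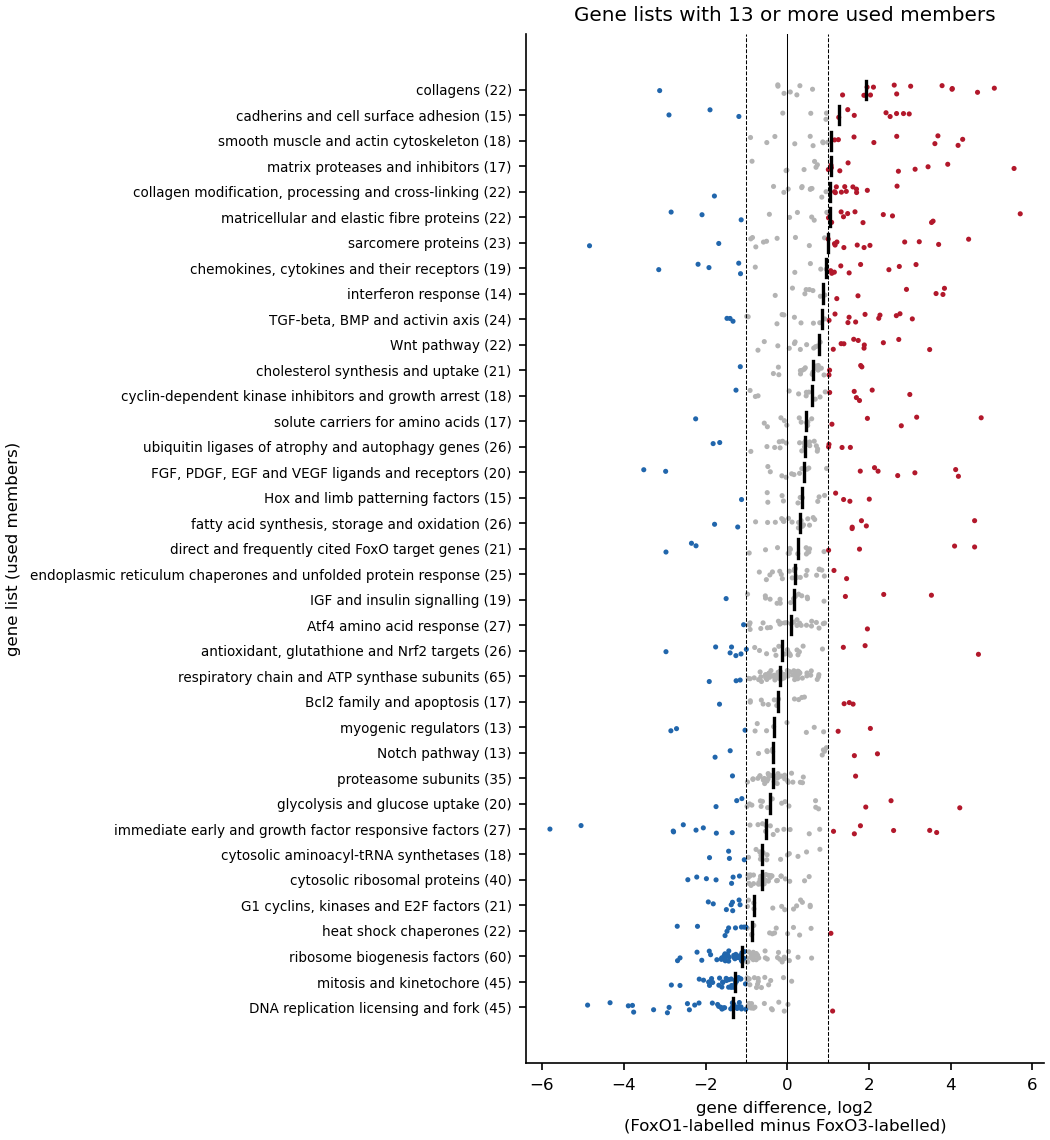
Difference of each used gene (x axis, log2, FoxO1-labelled minus FoxO3-labelled array) in the lists with 13 or more used members (rows, with that number in brackets). Red points are at least 2-fold higher, blue points at least 2-fold lower and grey points between, black bars are list medians, and dashed lines mark 2-fold. Collagens have the highest median, 1.94, and DNA replication genes the lowest, -1.32.

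The FoxO4-labelled array stood nearer to either of the others, depending on the gene. By median log2 signal, it was nearer the FoxO1-labelled array for 100 of the 152 higher agreeing genes and nearer the FoxO3-labelled array for 52. Of the 154 lower agreeing genes, 88 were nearer the FoxO1-labelled array and 66 nearer the FoxO3-labelled array. Bgn, Ogn and Hspb1 are examples of the first kind, where the FoxO3-labelled array stood alone. Mmp2 and Col11a1 are examples of the second, where the FoxO1-labelled array stood alone.

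Gene differences were also read by position on chromosomes, a description added after the values were seen. The 9156 used genes with a chromosome in the RefSeq table were cut into 450 runs of 20 neighbouring genes. The run medians had quartiles of -0.19 and 0.22. On chromosome 9, 23 of 24 runs had a median above 0, and its 493 genes had a median of 0.33. The 279 of those with all probe sets bright on both arrays had a median of 0.23. Chromosome 16 had a median of 0.34 over 304 genes, with 11 of 15 runs above 0. Its 142 genes with all probe sets bright on both arrays had a median of 0.14. Chromosome 8 lay the other way, with 20 of 24 runs below 0 and a median of -0.30 over 494 genes. Over all runs, 234 were above 0 and 216 below. The run furthest from 0, on chromosome 18 from Sap130 to Fam13b, had a median of -1.30, with 13 of 20 genes at least 2-fold lower and 1 higher. The same genes had a median of 0.05 for FoxO1 minus FoxO4 and 1.45 for FoxO3 minus FoxO4, comparisons that share arrays with this one. Wdr36, a ribosome biogenesis factor in that run, was an agreeing gene at 1009 and 1125 on the FoxO1-labelled array, 7091 and 6619 on the FoxO3-labelled array and 1076 and 726 on the FoxO4-labelled array. Nrep, in the same run, was the exception at 9351 and 9066 on the FoxO1-labelled array, 67.2 and 618 on the FoxO3-labelled array and 18199 and 15377 on the FoxO4-labelled array. No copy number was measured in the files used here.

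**Figure D5:**
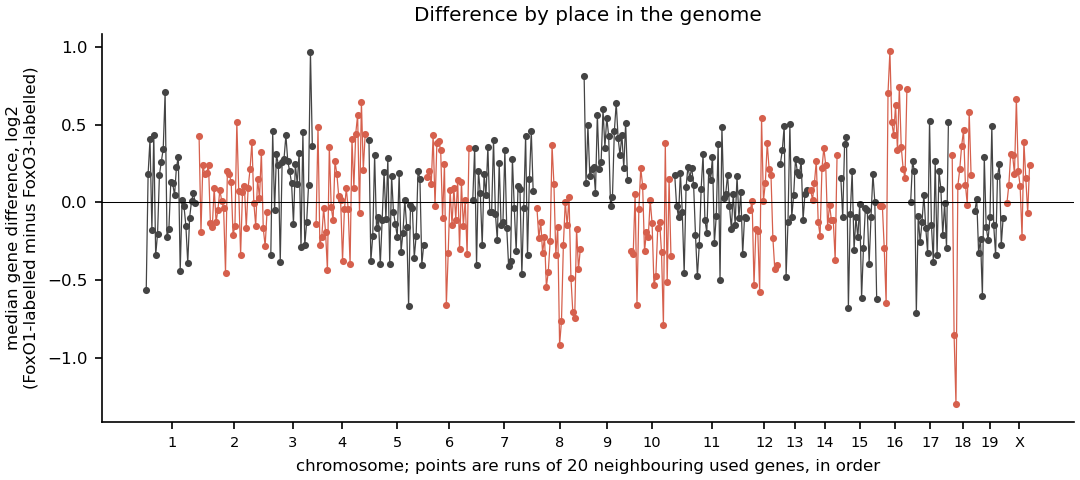
Median gene difference (y axis, log2, FoxO1-labelled minus FoxO3-labelled array) of each run of 20 neighbouring used genes, in order along chromosomes 1 to 19 and X (x axis, by order and not by distance). Colours alternate between chromosomes, all but 1 of the runs of chromosome 9 lie above 0, and the lowest point is the run on chromosome 18.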

How the data were processed

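The authors deposited a table of intensity values, 1 GCOS signal per probe set and array (GCOS per the submitters' processing notes, without a version). The deposited signals have a 2% trimmed mean of 1000 on each array, so each array was scaled to the same target. The deposited table of ratios to a control was not used, and neither were its calls. Probe sets were named through the platform annotation: 34958 had 1 symbol, 932 several and 9211 none, and Entrez identifiers tied 34754 single-symbol probe sets to RefSeq genes (GRCm38.p6). The 64 array control probe sets were left out. Log2 differences of the deposited intensity were taken after the floor described above, with 2-fold as the threshold. The calculation was tested on simulated data. The members, lists and tests were chosen with earlier results of these data known. Named genes were drawn from those that met a rule. It took Foxo probe sets, and the 20 highest and 20 lowest agreeing genes by their probe set nearest 0. It also took the 10 highest and 10 lowest with 1 probe set bright on both arrays. Per list, it took agreeing members and up to 3 highest and 3 lowest others at 2-fold or more. In a list with none, it took the 2 brightest members. Not every gene that met the rule is discussed, for example Aebp1 (4.12 and 4.94) and Sema4f (-3.74 and -5.61). Clone names were left out. Genes set beside those of the rule (Col4a1, Col4a2, Col3a1, Col6a3, E2f1, Cdkn1a, Cdkn1b, Sod2 and Cat), cell type markers and examples were chosen after their values were seen. Alternatives covered the signal limit, floor, scaling, probe set type, gene summary and threshold. The number of arrays limits the precision. Calculations used pandas 2.3.3 and numpy 2.4.6 under Python 3.11.15, with figures drawn by matplotlib 3.10.9.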

Additional observations from a re-analysis of the deposited data

How the results depend on the processing

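Counts are given as higher and lower on the FoxO1-labelled array. With a signal limit of 500 there were 6429 and 4865 probe sets, 3089 and 2295 genes, and 295 and 235 agreeing genes. With a limit of 2000 there were 988 and 1369 probe sets, 726 and 876 genes, and 74 and 115 agreeing genes. Requiring 1000 on both arrays left 627 and 996 probe sets, 434 and 579 genes, and 36 and 73 agreeing genes, and requiring it of the mean left 1105 and 1442 probe sets, 744 and 861 genes, and 67 and 102 agreeing genes. At 4-fold there were 1005 and 698 probe sets, 586 and 408 genes, and 38 and 22 agreeing genes. Plain probe sets alone gave 1971 and 1559 probe sets, 1375 and 1161 genes, and 76 and 51 agreeing genes. These limits change which features enter, so the counts move by construction. Centring each array on its median lowered the median gene to -0.25, and the split became 1930 and 3250 probe sets, 1173 and 1962 genes, and 106 and 240 agreeing genes. The split by gene was 1589 and 1386 before that, 1435 and 1493 after quantile normalization and 1727 and 1251 with the difference centred on bright probe sets. Without a floor, with the floor at the 40th percentile and with the brightest probe set per gene, no count moved by 1.5 times. The median of the collagen list lay between 1.68 and 2.02 under 11 alternatives, that of the replication list between -1.57 and -1.22, mitosis between -1.54 and -1.19, and heat shock between -1.12 and -0.58. Single genes changed sign as probe sets entered or left their median. With a limit of 500, Acvr1 became 0.22, Fkbp14 -0.63, Gclm -0.26, Orc2 -0.092 and Sfrp1 -2.32. Acvr1 was also 0.22 and Rps3 0.011 with a limit of 2000, with 1000 on both arrays, by the mean and with the brightest probe set. Egfr became -0.23 with 1000 on both arrays and with the brightest probe set, and Ero1b -0.83 and Orc2 -0.62 by the mean and with the brightest. No paired analysis was possible because each line has 1 array and the result comes from no test.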

Other observations

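Signals joined by "against" are again of the FoxO1-labelled array and then of the FoxO3-labelled array. Genes with 1 used probe set that was bright on both arrays added secreted proteins to the higher side. Slit2, a guidance ligand, read 27088 on the FoxO1-labelled array, 1049.9 on the FoxO3-labelled array and 2023 on the FoxO4-labelled array. Matrix Gla protein (Mgp), an inhibitor of calcification, read 24484 on the FoxO1-labelled array, 1046 on the FoxO3-labelled array and 70552 on the FoxO4-labelled array. The collagen receptor Mrc2 read 11731 against 1336, and the selenium carrier Selenop 10922 against 1203. On the lower side, the chromatin protein Dek read 1732 against 11394 and the small GTPase Rhob 5558 against 35439.7. Rps2, a protein of the small ribosomal subunit, read 46651 against 251834, a larger difference than the median of its family, -0.62.

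Prostanoid genes split, with prostacyclin synthase (Ptgis) at 17188 on the FoxO1-labelled array, 143 on the FoxO3-labelled array and 12118 on the FoxO4-labelled array and the receptor Ptger4 at 1323 against 5305. Of 17 used amino acid carriers, 5 were at least 2-fold higher and 1 lower, beside 17.3% and 15.1% over all used genes. Over probe sets bright on both arrays there were 0 higher and 0 lower of 10, median 0.17. The glutamate carriers Slc1a3 and Slc1a6 were higher, at 1148 and 1408 against 79.1 and 427 for the first, and 1960.4 against 61.9 for the second. Slc7a6 agreed as lower at 804 and 384 against 2814 and 2454. Notch genes had 2 higher and 2 lower of 13, close to the shares over all used genes. The effector Heyl agreed as higher at 3034 and 1311 against 911 and 205, bright on the FoxO1-labelled array alone. Apoptosis genes had 3 higher and 1 lower of 17, and Hox and limb factors 4 and 1 of 15. Over probe sets bright on both arrays, Notch genes had 1 higher and 0 lower of 10. Counted that way, apoptosis genes had 1 and 0 of 12, and Hox and limb factors 2 and 0 of 8.

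Probe sets of 1 gene often differed. Of the 2725 genes with 2 or more used probe sets, 1657 had all of them on 1 side and 1068 did not. In 62 genes, 1 probe set was at least 2-fold higher and another at least 2-fold lower. Of 749 genes with 2 or more probe sets whose median passed 2-fold, 443 were not agreeing. Of the 306 agreeing genes, 92 had every used probe set at 1000 or more on both arrays, 30 higher and 62 lower.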
